A study of Mus musculus with 11 samples.

Results

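Transcript levels of 10 genes of the tendon, cartilage and bone lineages were compared between mice with and without a floxed beta-catenin allele. The materials were sorted muscle mesenchymal progenitors and whole muscle. The allele is floxed at exon 3, a design meant to stabilise beta-catenin once recombined, not to remove it. Protein was not measured in these libraries. The genes were chosen by symbol, with earlier results of these data known. They are the transcription factors Sox9, Runx2, Scx and Mkx, the membrane protein gene Tnmd, and the matrix genes Fmod, Comp, Cilp, Cilp2 and Acan. All 10 were among the 24421 symbols of both count tables. All 11 libraries are labelled as collected from hindlimb muscle at rest after tamoxifen. The design text describes Hic1CreERT2 mice that carry b-CATENIN exon3 WTflox and a tdTomato reporter; the genotype label of each library is WT or WTlFlox, written here as WT/flox. Progenitors were sorted as CD45- CD31- Sca1+ tdTomato+ alpha7- cells from 3 WT animals (72B8, 74A2 and 73C3) and 3 WT/flox animals (74A1, 72B7 and 74A3). Since WT cells were sorted on tdTomato as well, the WT progenitors also come from reporter mice. Lysate came from the tibialis anterior muscle of 2 WT animals (73A5 and 73A7) and 3 WT/flox animals (71B3, 71B4 and 71B5). The progenitors are labelled day 14 after tamoxifen, except 74A3, which is labelled day 56, and the lysates are labelled day 56. Cre is driven from the Hic1 locus, which is active in mesenchymal cells of many tissues, so recombination can also take place outside the sorted cells. Animal age is not given in the sources used here.

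Mesenchymal progenitors of muscle, also called fibro/adipogenic progenitors, lie between the fibres and can give rise to fibroblasts, adipocytes and, in some settings, cartilage and bone. Sox9 directs cells to the cartilage fate and Runx2 to the bone fate, and Wnt signalling through beta-catenin is known to act on the choice between the fates during skeletal development. Scx and Mkx are transcription factors of tendon, and Tnmd is a membrane protein of mature tendon cells. Fmod encodes fibromodulin, a small proteoglycan that binds collagen fibrils. Comp, Cilp, Cilp2 and Acan encode large proteins of the cartilage and tendon matrix.

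Promoter sequences were available from RefSeq (GRCm38.p6) for 6 of the 10 genes: Runx2, Tnmd, Cilp, Cilp2, Fmod and Acan. The 250 bases upstream of the RefSeq start are shown for Fmod and Cilp, chosen for their place in the progenitor comparison: the log2 fold change was most negative for Fmod and closest to 0 for Cilp, though neither passed the test. For both genes the RefSeq start was also the first GENCODE start. The Cilp2 and Runx2 windows lie wholly or partly inside an annotated first exon and are not shown. Capitals mark matches on either strand to any of 5 motifs. These were CTTTGA, a core of the TCF/LEF sites bound by the partners of beta-catenin, TGTGGT, a core of RUNX sites, ACAATG, a core of SOX sites, CAGATG, an E-box of the kind that Scx binds, and the TATA box TATAAA.
Fmod, chr1:134037004-134037253, plus strand: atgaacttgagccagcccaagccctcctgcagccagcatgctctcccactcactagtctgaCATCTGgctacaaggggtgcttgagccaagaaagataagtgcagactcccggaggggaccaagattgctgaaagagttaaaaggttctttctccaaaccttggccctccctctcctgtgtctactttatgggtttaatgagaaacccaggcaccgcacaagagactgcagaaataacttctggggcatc
Cilp, chr9:65264930-65265179, plus strand: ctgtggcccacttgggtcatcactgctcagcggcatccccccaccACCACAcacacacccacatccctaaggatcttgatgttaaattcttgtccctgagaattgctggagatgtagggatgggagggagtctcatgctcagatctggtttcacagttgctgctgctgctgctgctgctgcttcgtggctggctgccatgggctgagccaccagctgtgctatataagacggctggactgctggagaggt
The Fmod sequence held 1 match, to the E-box, read on the opposite strand. The Cilp sequence held 1 match, to the RUNX core, also read on the opposite strand. Of the full windows not shown, that of Runx2 held the TCF/LEF core at position -103 from the RefSeq start. It also held the RUNX core at -80, 24 and 32. Those of Tnmd, Cilp2 and Acan held no match. Over the full RefSeq windows, which run on for 50 bases past the start, a match was found in 16% of 32851 mouse promoters for the TCF/LEF core, 16.8% for the RUNX core, 12.6% for the SOX core, 17.2% for the E-box and 13.6% for the TATA box. Each of these motifs is therefore common in windows of this length, and the matches are a description of the letters only.

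Progenitor libraries held 13119843 to 16805238 counts and lysate libraries 16892158 to 19449227 counts. Levels within a material are CPM, the counts of a gene scaled to the size of its library with TMM factors. The sorted cells had 2.67% to 3.37% of counts in 8 genes of progenitor identity in WT and 4.13% to 4.46% in WT/flox. Dcn (log2 fold change 0.46) and Col1a1 (1.16) make up most of that sum. The median of the 8 was 0.15, with Pdgfra (-0.47), Pi16 (-0.38) and Hic1 (-0.26) negative and the rest positive. The lysates had 11.7% to 16.3% of counts in 8 myofibre genes. Of 5 osteoblast markers, Sp7, Bglap and Ibsp had 0 counts in all 6 progenitor libraries, while Runx2 had 83 to 167 counts and Alpl, a phosphatase of bone and other tissues, 398 to 772. Of 6 chondrocyte markers, Col9a1 had 0 counts in all 6, while Sox9 had 110 to 421, Col2a1 7 to 35, Matn3 2 to 8, Hapln1 0 to 11 and Acan 0 to 5. Ctnnb1, the floxed gene, measured 482 ± 38.3 CPM (SD, n = 3) in WT and 402 ± 23.1 CPM (SD, n = 3) in WT/flox progenitors (edgeR adjusted p = 0.673). The level of the whole gene does not show whether exon 3 was removed.

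In WT/flox progenitors Mkx, a transcription factor of tendon, was higher, and Sox9, the cartilage regulator, and Cilp2, a cartilage matrix gene, were lower. These were the 3 of 9 tested genes that passed an adjusted p of 0.05 (edgeR quasi-likelihood test, Benjamini-Hochberg over 12392 genes). Across all genes tested, 2.34% were called higher and 1.32% lower. The other 6, Runx2, Scx, Tnmd, Cilp, Comp and Fmod, did not pass, and Acan had too few counts to be tested. The median log2 fold change of the 9 genes was -0.67, beside 0.00 over all genes. Samples did not overlap between the genotypes for 5 of the 9 (Sox9, Runx2, Mkx, Cilp2 and Fmod), where 16.9% of all tested genes showed no overlap. Each comparison of bulk RNA measures the sum over the cells, and fewer cells of a type and less RNA per cell cannot be told apart.

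**Figure D1:**
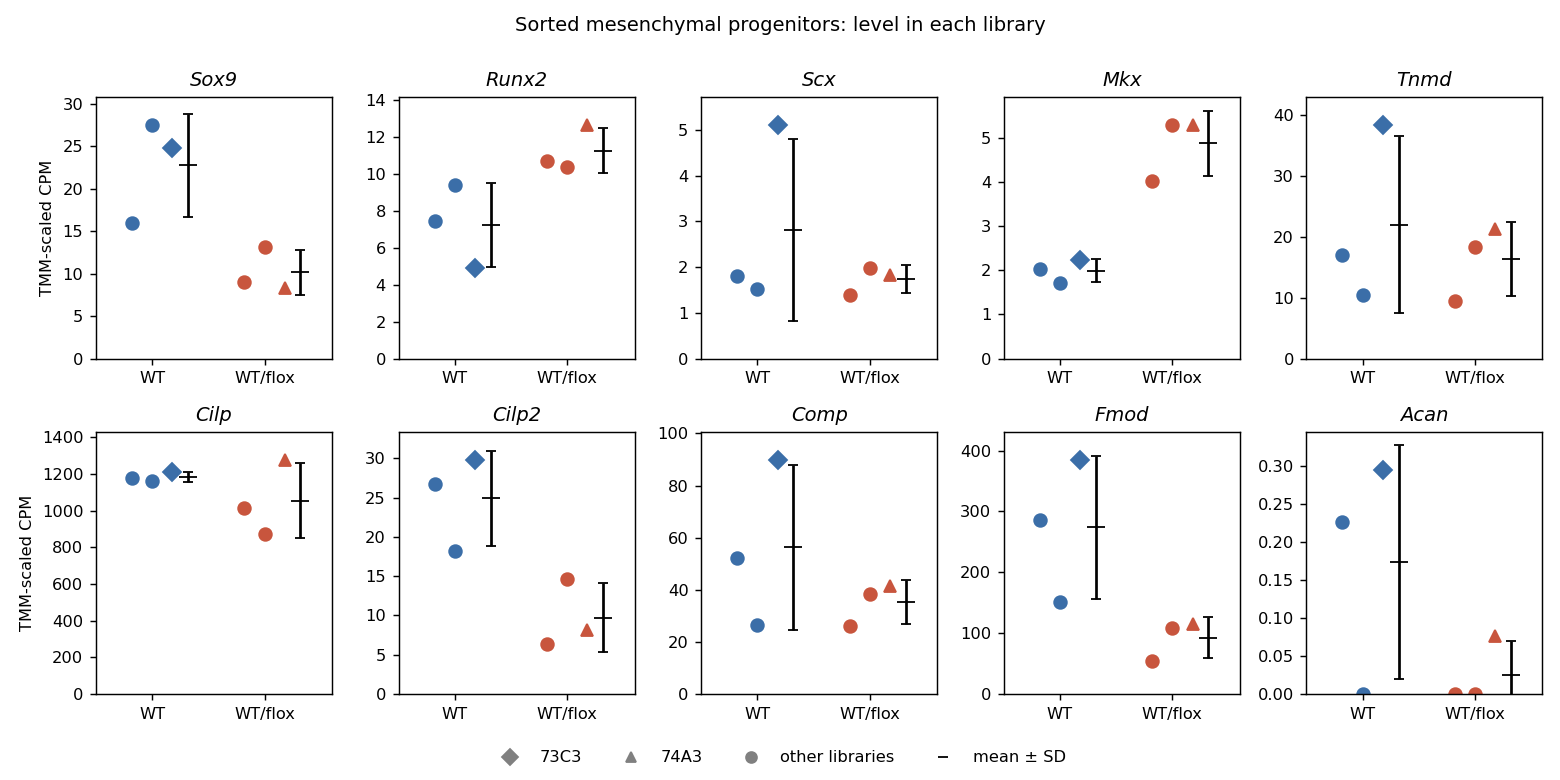
Level of each of the 10 genes in the 6 progenitor libraries, in TMM-scaled CPM on axes that start at 0, with 1 point per library and the mean ± SD (n = 3) beside each group. Every WT/flox point lies below every WT point for Sox9, Cilp2 and Fmod and above for Mkx and Runx2; the WT library 73C3 (diamond) stands highest for Scx, Tnmd and Comp.

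Sox9 (chromosome 11, 112782224 to 112787760, plus strand, GRCm38) encodes the transcription factor needed for cartilage formation. It measured 16.0 CPM in WT library 72B8, 27.5 CPM in 74A2 and 24.8 CPM in 73C3. In the WT/flox libraries it measured 8.95 CPM in 74A1, 13.1 CPM in 72B7 and 8.34 CPM in 74A3. All 3 WT/flox values lay below all 3 WT values, the closest being those of 72B7 and 72B8. The group means were 22.8 ± 6.04 CPM and 10.1 ± 2.60 CPM (SD, n = 3), and the log2 fold change was -1.17 (SE 0.25, 95% interval -1.73 to -0.60, edgeR adjusted p = 0.0335). WT/flox was at 0.325 of WT in the female pair and 0.527 of WT in the males. Among animals whose identifiers start with the same characters, it was at 0.821 of WT for 72B and 0.314 for 74A. The call did not hold with that identifier series as a block (edgeR adjusted p = 0.110). In that fit 73C3, the only progenitor library of its series, has no part in the genotype difference. The call held in 2 of the 6 fits that left out 1 library.

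Runx2 (chromosome 17, 44495987 to 44814797, minus strand), whose product starts osteoblast formation, had a positive fold change that missed the threshold. WT libraries measured 7.46, 9.40 and 4.88 CPM, in the order 72B8, 74A2, 73C3 that is kept from here on. WT/flox libraries measured 10.7, 10.4 and 12.7 CPM, in the order 74A1, 72B7, 74A3. The groups did not overlap, but the lowest WT/flox value exceeded the highest WT value by little. The log2 fold change of 0.64 (SE 0.25, 95% interval 0.08 to 1.20) did not pass (edgeR adjusted p = 0.299). An antisense gene, Runx2os1, shares 519 of the 8837 exon bases of Runx2, and since the strand setting of the counting is not given, its reads and those of Runx2 cannot be told apart there.

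Scx (chromosome 15, 76457452 to 76459458, plus strand), the early regulator of the tendon lineage, was near the lower end of what was measured. Its levels were 1.81, 1.52 and 5.12 CPM in WT and 1.39, 1.99 and 1.82 CPM in WT/flox progenitors. The other 5 libraries lay close together, and WT 73C3 was 2.57 times as high as the next library. The log2 fold change was -0.71 (SE 0.48, 95% interval -1.79 to 0.37, edgeR adjusted p = 0.726), and without 73C3 it was 0.06.

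Mkx (chromosome 18, 6934518 to 7004780, minus strand) encodes Mohawk, a homeodomain factor that maintains tendon cells. It measured 2.03, 1.72 and 2.24 CPM in WT and 4.04, 5.31 and 5.31 CPM in WT/flox progenitors. The 3 WT values lay close together and every WT/flox value was well above them, so the gap between the groups exceeded the spread within each. The means were 1.997 ± 0.259 and 4.88 ± 0.733 CPM (SD, n = 3), a ratio of 2.45. The log2 fold change was 1.28 (SE 0.27, 95% interval 0.67 to 1.90, edgeR adjusted p = 0.0323). These levels rest on 91 WT and 197 WT/flox reads in all. WT/flox was 2.35 times WT in the female pair, 2.49 times in males, 2.61 times within 72B and 2.71 times within 74A. The fold change stayed between 1.18 and 1.41 when each library was left out, and 1 of those 6 fits called it. An unnamed gene model on the same strand, AC148004.2, shares 201 of the 4095 exon bases of Mkx.

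Tnmd (X chromosome, 133850980 to 133865577, plus strand) encodes tenomodulin, which marks mature tenocytes. It measured 17.1, 10.5 and 38.5 CPM in WT and 9.47, 18.3 and 21.3 CPM in WT/flox progenitors. The groups overlapped, and WT 73C3 was 1.81 times as high as the next library. The log2 fold change was -0.43 (SE 0.46, 95% interval -1.48 to 0.61, edgeR adjusted p = 0.912), and it was 0.25 without 73C3. In Scx and Tnmd, then, the sign of the difference rested on 1 library.

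Fmod (chromosome 1, 134037254 to 134048277, plus strand), whose upstream sequence is shown above, had the largest fold change of the 9 genes. It measured 285.8, 151 and 384 CPM in WT and 53.5, 108 and 115 CPM in WT/flox progenitors. The WT values spread widely, from 151 to 384 CPM, yet all lay above the WT/flox values. The means were 274 ± 117 and 92.2 ± 33.7 CPM (SD, n = 3), and the log2 fold change was -1.57 (SE 0.38, 95% interval -2.42 to -0.72). In edgeR it missed the threshold (adjusted p = 0.0586). It did pass in DESeq2 (adjusted p = 0.000135), in edgeR with sex as a covariate (0.000910), in the edgeR fit of all 11 libraries (0.0165) and in edgeR without WT 74A2 (0.0104). However, 5 of the 6 fits that left out 1 library did not call it, and the edgeR adjusted p reached 0.230. Of 14 alternatives tried, Fmod passed in 5, beside 7 for Sox9, 8 for Mkx and 9 for Cilp2. WT/flox was at 0.354 of WT in the female pair, 0.333 in males, 0.378 within 72B and 0.559 within 74A.

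Cilp and Cilp2 encode cartilage intermediate layer proteins, secreted matrix proteins of the same family. Cilp (chromosome 9, 65265180 to 65280605, plus strand) was the most abundant of the 10, with 1176, 1163 and 1211 CPM in WT and 1016, 871 and 1276 CPM in WT/flox progenitors. The groups overlapped, and the log2 fold change was -0.17 (SE 0.20, 95% interval -0.61 to 0.27, edgeR adjusted p = 0.927). Cilp2 (chromosome 8, 69880369 to 69887687, minus strand) measured 26.7, 18.1 and 29.8 CPM in WT and 6.31, 14.7 and 8.19 CPM in WT/flox progenitors. The WT/flox values all lay below the WT values, and 72B7 was the highest of them. The means were 24.9 ± 6.04 and 9.72 ± 4.38 CPM (SD, n = 3), and the log2 fold change was -1.36 (SE 0.31, 95% interval -2.05 to -0.66, edgeR adjusted p = 0.0447). WT/flox Cilp2 was at 0.348 of WT in the female pair, 0.404 in males, 0.548 within 72B and 0.400 within 74A. It was called in 2 of the 6 fits that left out 1 library.

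Comp (chromosome 8, 70373558 to 70382066, plus strand) encodes a thrombospondin of tendon and cartilage that assists collagen assembly. It measured 52.3, 26.6 and 89.8 CPM in WT and 25.9, 38.4 and 41.5 CPM in WT/flox progenitors. The groups overlapped, and WT 73C3 was 1.72 times as high as the next library. The log2 fold change was -0.67 (SE 0.39, 95% interval -1.55 to 0.20, edgeR adjusted p = 0.618), and it was -0.16 without 73C3.

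Acan (chromosome 7, 79053483 to 79115099, plus strand) encodes aggrecan, the main proteoglycan of cartilage. Its counts were 3, 0 and 5 in the WT and 0, 0 and 1 in the WT/flox progenitors. A library with 0 counts allows a level of up to 0.199 CPM in 74A2, 0.220 CPM in 74A1 and 0.221 CPM in 72B7, from 3 counts of the total and for counting error only. With so few reads no fold is given, and a difference was not detectable at this depth.

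**Figure D2:**
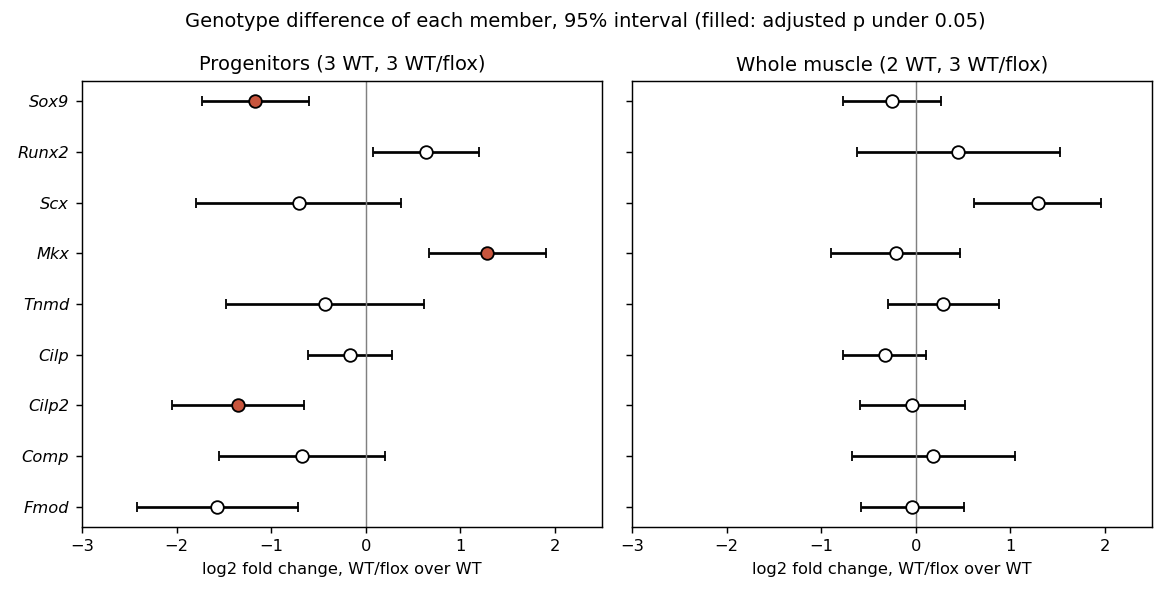
Log2 fold change of WT/flox over WT with its 95% interval (edgeR) for the 9 tested genes, in progenitors (left) and whole muscle (right), with filled points where the adjusted p is under 0.05. Filled points are Sox9 (-1.17), Mkx (1.28) and Cilp2 (-1.36) in progenitors, and no point is filled in muscle.

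Libraries 73C3 and 74A3 bear on these values. WT 73C3 was the highest of the 6 libraries for 6 of the 10 genes: Scx, Tnmd, Comp, Fmod, Cilp2 and Acan. The same library also had the most counts of Kera, a tendon and cornea proteoglycan (399, against 103 to 212 in the others). The 7 tenocyte markers together took 0.114% to 0.166% of counts in WT and 0.169% to 0.217% in WT/flox progenitors, where Thbs4 makes up most of the sum. The 6 chondrocyte markers took 0.00189% to 0.00296% and 0.000924% to 0.00147%. Sox9 makes up most of that sum in every progenitor library, so the share mostly restates Sox9. The 8 myofibre markers took 0.00176% to 0.0120%, with the highest share in 73C3, and 0.00182% to 0.00234%. The summed shares of 3 further lists were lower in WT/flox without overlap. The 5 mural markers took 0.0146% to 0.0244% and 0.00576% to 0.00846%, the 6 endothelial markers 0.0347% to 0.0467% and 0.0250% to 0.0308%, and the 5 muscle stem cell markers 0.00499% to 0.00567% and 0.00303% to 0.00365%. Tek (log2 fold change -1.31) makes up most of the endothelial sum in WT, while Kdr of that list was higher in WT/flox (4.23). Cspg4 (-2.24) makes up most of the mural sum in WT, and Vcam1 (-0.57) most of the muscle stem cell sum. The median log2 fold change was -0.39 for the endothelial, 0.08 for the mural and -0.57 for the muscle stem cell list. The part of these cell types in the results was not tested. Library 74A3, labelled day 56, was highest for Runx2, Mkx and Cilp. Without it 0 of the 9 genes were called, with log2 fold changes of -1.05 for Sox9, 1.22 for Mkx and -1.25 for Cilp2, each at an unadjusted edgeR p of 0.00866 or less. Leaving out 74A1 likewise left 0 called, as did leaving out 73C3 and 74A3 together.

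**Figure D3:**
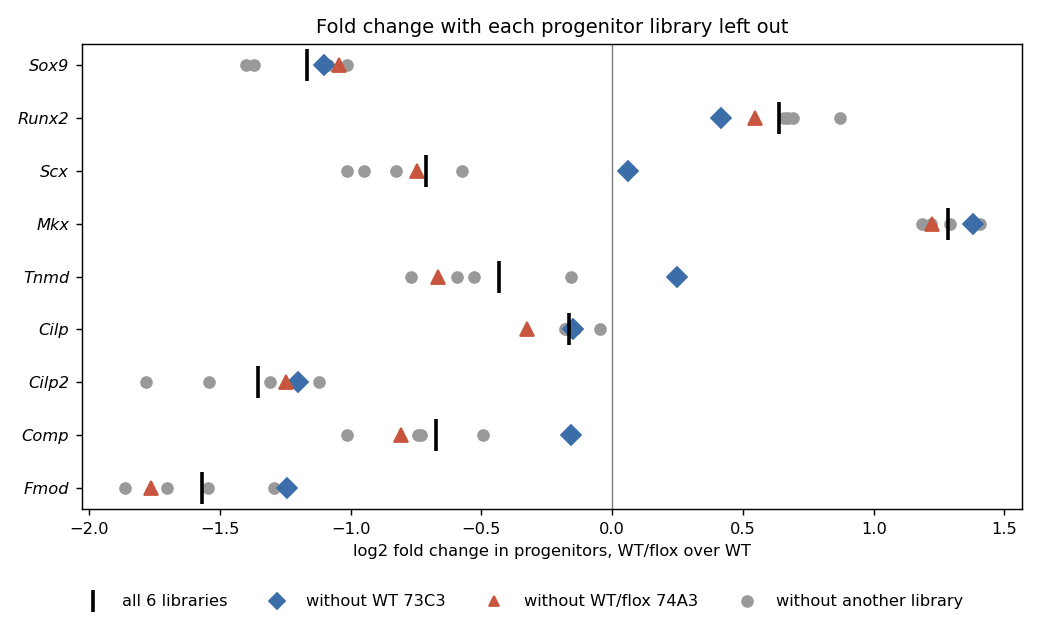
Log2 fold change of WT/flox over WT in progenitors for the 9 tested genes, from all 6 libraries (bar) and with each library left out in turn (points). Mkx stays between 1.18 and 1.41 and Sox9 between -1.40 and -1.01, while Scx and Tnmd cross 0 without WT 73C3 (diamond), at 0.06 and 0.25.

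Other genes of the same lineages were counted from lists by function, leaving out the 10. Of 14 tendon genes tested in progenitors 4 rose and 0 fell: Col12a1 (log2 fold change 2.14), a collagen on the surface of fibrils, Col1a1 (1.16) and Col1a2 (1.09), the chains of collagen I, and Thbs4 (0.90), a tendon thrombospondin. The list had a median of 0.03, and without library 74A3 the calls were 2, Col12a1 and Col1a1. Of 9 cartilage genes tested 0 passed edgeR in either direction. At an unadjusted p under 0.05, which 12.5% of all tested genes reached, the counts were 0 higher and 6 lower, and DESeq2 called 1 lower, Col9a2. Their median was -0.86, with values of -1.57 for Col9a2 (adjusted p = 0.0934), -1.47 for Chad (0.256), -1.07 for Col2a1 (0.335), -0.86 for Col11a2 (0.0834) and 0.26 for Sox5 (0.750). Col2a1, the main collagen of cartilage, had 7 to 35 counts per progenitor library. Of 8 bone genes tested 0 passed edgeR, with a median of -0.30; at the same unadjusted p the counts were 0 higher and 4 lower, and DESeq2 called 1 lower, Phex, a gene of phosphate balance in bone. Each of these medians stands beside 0.00 over all genes.

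Fmod belongs to the small leucine-rich proteoglycans. Of the 11 others, all tested, 1 rose, Omd (1.26), a keratan sulfate proteoglycan known from bone, and 0 fell, with a median of 0.46; without 74A3 the count was 0. DESeq2 called 4 higher (Aspn, Omd, Ogn and Bgn) and 0 lower, and at an unadjusted p under 0.05 edgeR had 4 higher and 1 lower. Of the 4 thrombospondins other than Comp, 2 rose, Thbs2 (1.80) and Thbs4, and 0 fell; without 74A3 the call was Thbs2 alone. The relatives of Sox9 that were tested, Sox5 and Sox8, did not pass, and neither did Runx1 (0.32, edgeR adjusted p = 0.914). Vcan, the relative of Acan that was tested, was at -0.35 (adjusted p = 0.832).

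In whole muscle 0 of the 9 tested genes passed the edgeR test, where 0.727% of 12654 genes were called in either direction. At an unadjusted p under 0.05 the count was 1, Scx, against 9.69% of all genes, and DESeq2 called 1, also Scx. Samples did not overlap between genotypes for 2 of the 9, Sox9 and Scx, where 25.3% of all tested genes showed no overlap. The median log2 fold change of the 9 was -0.04, beside 0.00 over all genes. The WT animals all carry identifiers that start with 73A and the WT/flox animals 71B, so genotype and identifier series cannot be told apart in muscle.

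**Figure D4:**
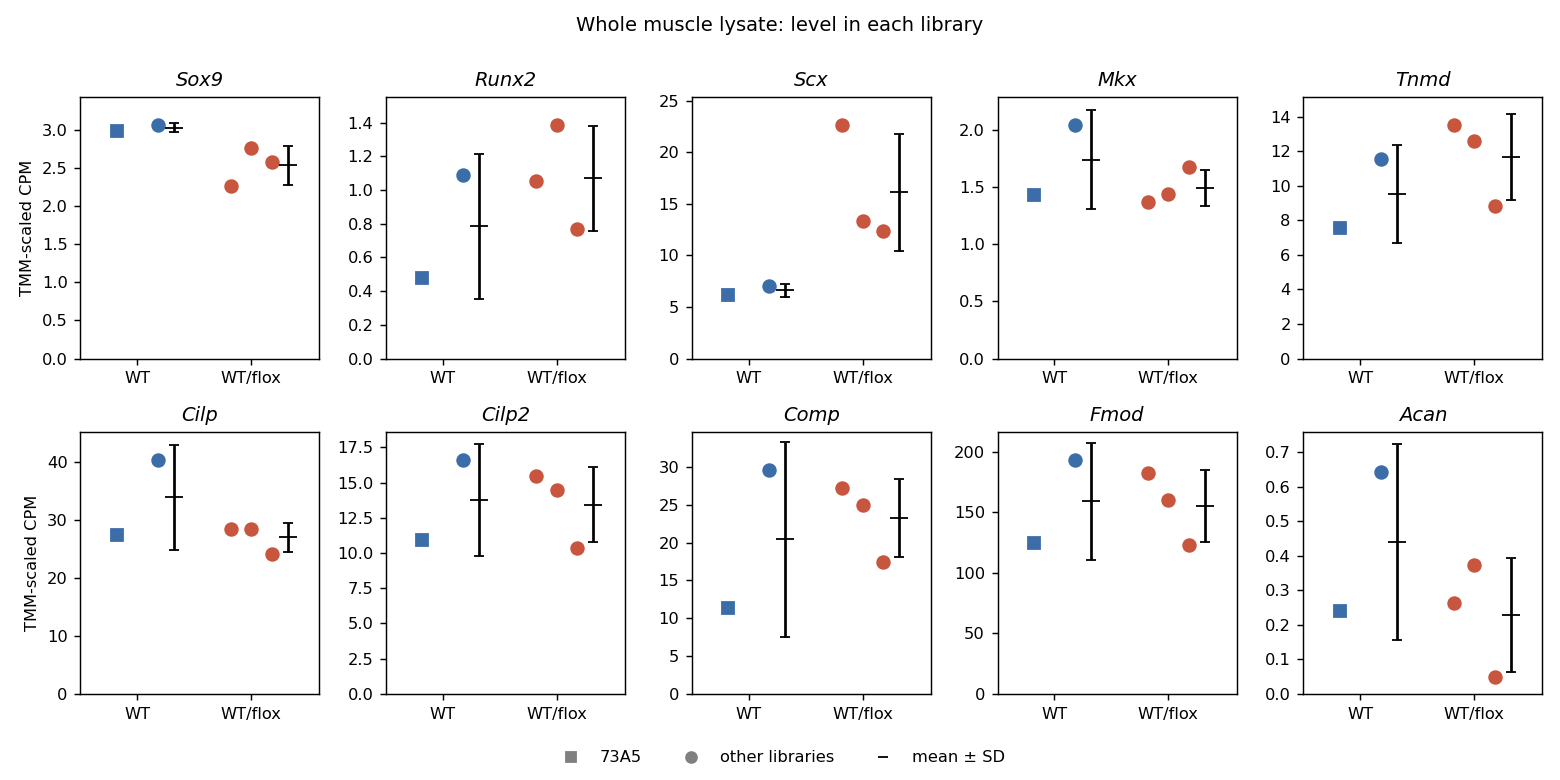
Level of each of the 10 genes in the 5 whole muscle libraries, in TMM-scaled CPM on axes that start at 0, with 1 point per library and the mean ± SD (WT n = 2, WT/flox n = 3) beside each group. Scx is the gene whose WT/flox points (12.4 to 22.7 CPM) all lie above the WT points (6.16 and 7.05 CPM); Sox9 lies slightly lower in WT/flox, and the other genes overlap.

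Scx measured 6.16 and 7.05 CPM in the WT muscles 73A5 and 73A7. In the WT/flox muscles it measured 22.7 CPM in 71B3, 13.3 CPM in 71B4 and 12.4 CPM in 71B5. The WT/flox values were all higher, and 71B3 stood above the other two. The means were 6.61 ± 0.624 (SD, n = 2) and 16.1 ± 5.67 CPM (SD, n = 3), and the log2 fold change was 1.29 (SE 0.29, 95% interval 0.61 to 1.96). The edgeR adjusted p was 0.134 and the DESeq2 adjusted p 0.00409. Across the alternatives tried, the adjusted p ran from 0.00409 to 0.340 and the fold change from 0.96 to 1.45. Scx lies within Bop1 on the opposite strand, with 0 shared exon bases, and Bop1 was at 0.10 in muscle (edgeR adjusted p = 0.917). In the same libraries the 8 progenitor genes took 0.0533% to 0.0796% of counts in WT and 0.106% to 0.118% in WT/flox. Dcn (log2 fold change 0.79) and Col1a1 (0.71) make up most of that sum in each library. Of those 8, 0 passed edgeR. Their median was 0.28, and the values ran from 0.09 for Ly6a to 1.28 for Dpp4 (adjusted p = 0.0846). The tenocyte markers, Scx among them, took 0.0307% to 0.0491% and 0.0352% to 0.0460%, with a median log2 fold change of 0.19. Kera was at 0.63 (edgeR adjusted p = 0.348), while Thbs4 (-0.35), Mkx (-0.21) and Fmod (-0.04) were negative. The part of these cell types in the Scx value was not tested.

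Sox9 was low in muscle, at 2.99 and 3.08 CPM in WT and 2.27, 2.77 and 2.58 CPM in WT/flox, in the order 71B3, 71B4, 71B5. The groups did not overlap, but the log2 fold change was small, at -0.25 (95% interval -0.77 to 0.27, edgeR adjusted p = 0.820). Mkx, the gene that was higher in progenitors, measured 1.44 and 2.05 CPM in WT and 1.37, 1.44 and 1.67 CPM in WT/flox muscle. Its groups overlapped, with a log2 fold change of -0.21 (95% interval -0.90 to 0.47, edgeR adjusted p = 0.903).

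Fmod and Cilp2 had fold changes close to 0 in muscle. Fmod measured 125 and 193 CPM in WT and 182, 160 and 123 CPM in WT/flox, with a log2 fold change of -0.04 (95% interval -0.58 to 0.50, edgeR adjusted p = 0.984). Cilp2 measured 10.95 and 16.6 CPM in WT and 15.4, 14.5 and 10.4 CPM in WT/flox, with a log2 fold change of -0.04 (95% interval -0.59 to 0.52, edgeR adjusted p = 0.985). In both genes 73A7 was the highest and 73A5 the second lowest of the 5 muscles, so the groups overlapped.

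The other muscle values also overlapped. Tnmd measured 7.54 and 11.5 CPM in WT and 13.5, 12.6 and 8.85 CPM in WT/flox (log2 fold change 0.29, edgeR adjusted p = 0.819). Comp measured 11.3 and 29.5 CPM in WT and 27.2, 24.97 and 17.4 CPM in WT/flox (0.19, adjusted p = 0.934). The WT muscles enclosed all 3 WT/flox values of Comp, and 73A7 was above 73A5 for each of the 10 genes. Cilp measured 27.5 and 40.3 CPM in WT and 28.4, 28.5 and 24.1 CPM in WT/flox (-0.33, adjusted p = 0.661). Runx2 was low, with 0.479 and 1.09 CPM in WT and 1.05, 1.39 and 0.766 CPM in WT/flox (0.45, adjusted p = 0.853). Acan had 4 and 10 counts in WT and 5, 7 and 1 in WT/flox muscle and was not tested.

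Of the related genes in muscle, 0 of 14 tendon, 0 of 9 cartilage and 0 of 7 bone genes passed edgeR, with medians of 0.01, -0.13 and -0.14. At an unadjusted p under 0.05 the counts were 4 higher and 2 lower in the tendon list, 0 and 2 in the cartilage list and 1 and 0 in the bone list. DESeq2 called 1 tendon gene higher, Dcn, the collagen-binding decorin, and 0 of the other lists. Of 10 other small leucine-rich proteoglycans tested Ogn (1.20, edgeR adjusted p = 0.0356) rose, and of 4 other thrombospondins Thbs2 (1.11, adjusted p = 0.0223) rose.

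Whether the genotype difference was itself different between the materials was tested in a joint edgeR fit of all 11 libraries. None of the 9 genes passed (0 called, where 0.769% of 13781 genes were called in either direction). The largest differences, as progenitor minus muscle log2 fold change, were -2.08 for Scx (95% interval -3.41 to -0.76, edgeR adjusted p = 0.205), -1.60 for Fmod (-2.75 to -0.46, adjusted p = 0.290), 1.44 for Mkx (0.56 to 2.33, adjusted p = 0.179) and -1.38 for Cilp2 (-2.36 to -0.40, adjusted p = 0.283). At an unadjusted p under 0.05 the count was 5 of 9, against 8.71% of all genes, and DESeq2 called 0. A call in progenitors without one in muscle is therefore not shown to differ between them for Sox9 (-0.97, adjusted p = 0.438), Mkx or Cilp2. Among the related genes Col12a1 passed (2.07, adjusted p = 0.00731). Material, RNA kit and, for 5 of the 6 progenitor libraries, labelled day change together and cannot be told apart.

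Between the materials, 4 of the 9 tested genes differed in WT animals. All WT progenitor libraries are labelled day 14 and both WT muscles day 56. Material, labelled day and RNA kit therefore cannot be told apart here, and 74A2 is the only female among these animals. Sorted progenitors had more Cilp, Runx2 and Sox9 and less Scx than whole muscle, and 5 genes did not pass. On the joint TMM scale the log2 difference of progenitors over muscle was 4.56 for Cilp (95% interval 3.97 to 5.15, edgeR adjusted p = 2.57e-09), 2.63 for Runx2 (1.79 to 3.47, adjusted p = 2.90e-05) and 2.34 for Sox9 (1.70 to 2.98, adjusted p = 5.87e-06). It was -1.75 for Scx (-2.69 to -0.81, adjusted p = 0.00234). Of all 13781 genes 38.6% were called higher and 37.5% lower in this comparison, so 4 calls among 9 genes do not exceed that background. The difference was 0.92 for Comp (adjusted p = 0.0969), 0.67 for Tnmd (0.228), 0.30 for Cilp2 (0.433), 0.23 for Fmod (0.600) and -0.36 for Mkx (0.309). Comp (1.27) and Tnmd (1.02) passed without WT 74A2. Without 73A7 the difference for Comp was 1.71, but 73A5 is then the only WT muscle. For comparison Hic1, the driver locus and a progenitor marker, differed by 3.70.

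Of the other tendon genes of the list, 12 of 14 were called higher in the sorted cells and 0 lower, where 38.6% of all genes were called higher. Dcn and Col1a1 among them also count as progenitor markers here. Kera (0.75) and Chodl (-0.66) did not pass. Of the tendon genes among the 10, Cilp was higher and Scx lower, while Mkx, Tnmd, Fmod, Comp and Cilp2 did not pass. Of 11 other cartilage genes 5 were higher and 3 lower, and of 11 other bone genes 5 were higher and 4 lower. Sox5, a partner of Sox9 in cartilage, was higher in progenitors (3.49), while Sox6, which is also used by muscle fibres, was lower (-7.72).

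**Figure D5:**
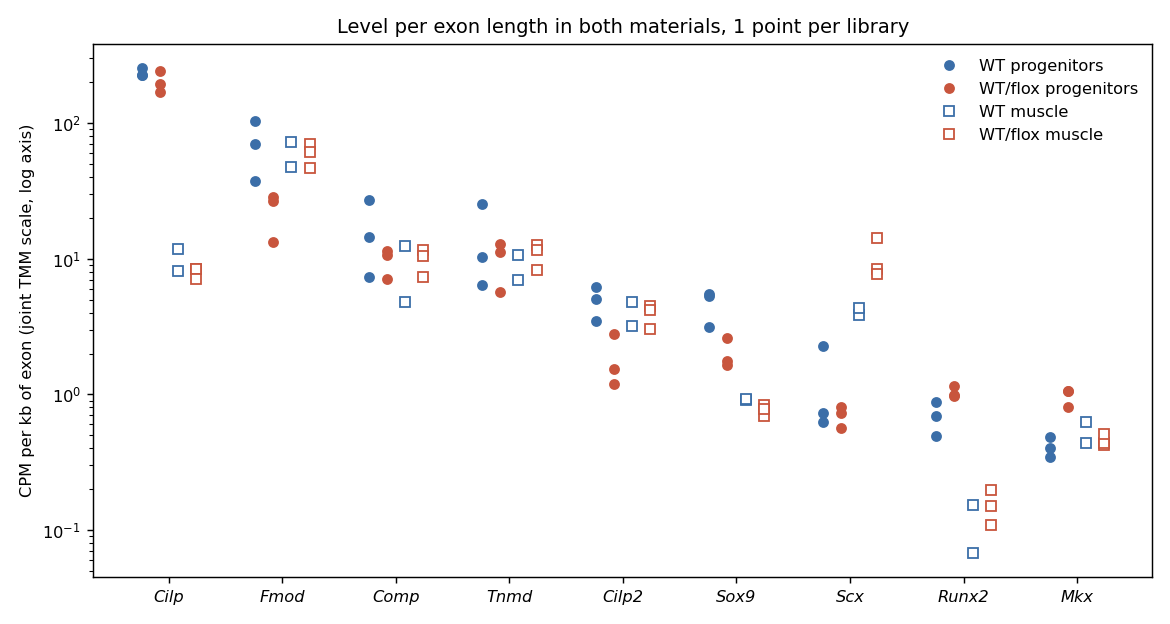
Level per exon length (joint TMM-scaled CPM per kb, log axis) of the 9 tested genes, with 1 point per library, for WT and WT/flox progenitors (filled) and WT and WT/flox muscle (open). Cilp, Runx2 and Sox9 are higher in progenitors and Scx is higher in muscle, while the WT points of Fmod, Comp, Tnmd, Cilp2 and Mkx overlap between the materials.

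Levels were also ordered between genes, per kb of exon on the joint scale. In WT progenitors Cilp led at 235 ± 16.2, followed by Fmod at 70.5 ± 32.9, Comp at 16.2 ± 9.90 and Tnmd at 14.0 ± 9.97 CPM per kb (SD, n = 3). Below them came Cilp2 at 4.88 ± 1.35, Sox9 at 4.65 ± 1.30, Scx at 1.21 ± 0.919, Runx2 at 0.684 ± 0.191, Mkx at 0.412 ± 0.0704 and Acan at 0.0199 ± 0.0180 CPM per kb. The neighbours Comp and Tnmd, Cilp2 and Sox9, and Scx and Runx2 overlapped between libraries, and the other neighbours did not. In WT/flox progenitors Cilp (202 ± 38.0) and Fmod (22.8 ± 8.30) still led, and Mkx (0.973 ± 0.146) reached the level of Runx2 (1.04 ± 0.107), next to Scx (0.705 ± 0.126). The libraries of Runx2 and Mkx overlapped, as did those of Mkx and Scx. In WT muscle Fmod led at 60.0 ± 17.6 CPM per kb (SD, n = 2). Cilp (9.94 ± 2.57), Tnmd (8.79 ± 2.52) and Comp (8.57 ± 5.34) followed with overlapping values, then Scx (4.11 ± 0.350) and Cilp2 (3.98 ± 1.117), also overlapping. Sox9 (0.916 ± 0.00905), Mkx (0.531 ± 0.127), Runx2 (0.110 ± 0.0599) and Acan (0.0733 ± 0.0467) were lowest, the last pair overlapping. In WT/flox muscle Fmod was at 58.9 ± 11.5, and Scx, at 10.1 ± 3.58 CPM per kb (SD, n = 3), overlapped Tnmd (10.8 ± 2.32) and Comp (9.82 ± 2.19).

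The genes most alike in pattern were ranked by the Pearson correlation of log2 CPM over the 11 libraries, as a description that mixes material, genotype and depth. Tnmd and Comp were each other's nearest gene (r = 0.90 over 11 libraries). Cilp2 and Fmod were each among the 3 nearest of the other (r = 0.94), with Smoc1, a secreted calcium-binding matrix protein, near both (0.95 to Cilp2 and 0.94 to Fmod). Chad, a cartilage leucine-rich protein that is in the cartilage list, was nearest to Fmod (0.94), and Tgm2, a transglutaminase, to Mkx (0.95). Of the genes that differed between the materials, Sox9 was nearest to Lmo2 (0.98), Scx to Nudt18 (0.98) and Cilp to Slc12a4 (0.998).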

How the data were processed

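RNA was sequenced from 6 sorted progenitor and 5 whole muscle libraries, made with a stranded mRNA kit and read as paired ends, per the labels' protocols. The deposited values are whole-number counts per gene symbol, made by the authors. Tools named in the submitters' processing notes are Bowtie, STAR and bcl2fastq 2.20, with the build mm10. How reads were assigned to genes, and with which strand option, is not given in the sources used here. Sample tables from the submitters also give sex and a replicate number, and call both materials FAPs; the labels were followed.

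The materials were fitted separately in edgeR 4.0.16 under R 4.3.3, after filterByExpr and with TMM factors, by the two-sided robust quasi-likelihood F test. P-values were adjusted by Benjamini-Hochberg over all genes tested. A joint fit of the 11 libraries gave the interaction and the WT comparison across materials. Levels across materials or between genes use joint TMM scaling and GENCODE M21 exon lengths (GRCm38). The procedure was tested on simulated counts, with changes given only to genes that were not low in counts. Of 100 genes changed 2-fold, it recovered 60 in progenitors, 66 in muscle, 51 in the WT comparison and 19 in the interaction. Of 100 changed 4-fold, it recovered 96, 97, 94 and 90. A 2-fold difference between the materials was thus mostly missed by the interaction test. Libraries come from distinct animals by their identifiers. The 10 genes and the lists were chosen with earlier results of these data known. All 10 genes, Ctnnb1 and Hic1 were named throughout; of each list, up to 4 called genes were named by adjusted p. Genes named beyond that (the cartilage genes, Kera, Dpp4, Bop1, Phex, Dcn, Aspn, Bgn, Sox5 and Sox6, Runx1 and Vcan, and the markers) were picked after their values were seen. The gene nearest to Runx2 and the glial marker list are not reported here. Alternatives were RLE scaling, no count filter, DESeq2 1.42.0, each library left out, sex, identifier series, the joint fit and, chosen after seeing the data, a replicate block and 73C3 and 74A3 left out together.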

Additional observations from a re-analysis of the deposited data

How the results depend on the processing

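RLE scaling changed no call among the 10 genes. In progenitors 3 genes of the 10 were called, 0 to 2 when each library was left out (1 without 72B8 or 73C3, 0 without 74A1 or 74A3) and 0 without 73C3 and 74A3 together; 454 genes were called in all, 749 by DESeq2, 262 to 483 with 1 library left out (262 without 74A3, 266 without 72B7) and 274 without both. In muscle 0 were called, 1 by DESeq2; 92 genes in all, 139 without the count filter, 263 by DESeq2 and 0 to 239 with 1 library left out (239 without 73A5, 207 without 73A7, 25 without 71B4, 0 without 71B5); without 73A5 or 73A7 the WT arm is 1 animal, assumed to vary like the WT/flox group, so those counts are not comparable with 92. The interaction called 106 genes, 269 by DESeq2 and 54 to 114 with 1 left out (54 without 73A7, 61 without 71B4, 66 without 71B3, 70 without 74A1). Calls in the WT comparison ranged from 4 to 6 of the 10 genes. With 1 library left out, log2 fold changes whose sign turned ran, in progenitors, from -1.01 to 0.062 for Scx and -0.77 to 0.25 for Tnmd; in muscle, from -0.035 to 1.14 for Runx2, -0.35 to 1.03 for Comp, -0.32 to 0.31 for Fmod, -0.45 to 0.058 for Mkx and -0.31 to 0.29 for Cilp2; in the interaction, from -0.52 to 0.62 for Runx2 and -0.16 to 0.34 for Cilp; in the WT comparison, from -0.15 to 0.54 for Fmod and -0.073 to 1.02 for Tnmd. Scx and Tnmd in progenitors also turned with the identifier series as a block (0.10 and 0.35) and without both 73C3 and 74A3 (0.026 and 0.014). The block, too, takes 73C3 out of the genotype difference, since it is the only progenitor library of its series. Neither fit is therefore separate from leaving out 73C3. None of these sign changes passed the test, and their cause was not tested. Whether the deposited replicate numbers pair the samples was not settled. Deviations of same-numbered progenitors correlated at 0.03 (72B8 and 72B7), 0.29 (74A2 and 74A1) and -0.13 (73C3 and 74A3). Those of differently numbered progenitors ran from -0.31 to 0.29. Animals 72B8 and 72B7 share sex and identifier series, as do 74A2 and 74A1. Deviations from the mean of so few libraries depend on each other, so these correlations cannot decide it. With a replicate block 178 genes were called in muscle and 57 in the interaction; in progenitors 3 of the 10 were called, with Fmod gained (adjusted p = 0.00157, edgeR) and Sox9 lost (0.0504). Genes with few reads, Acan above all, limit what could be detected.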
